A study of Mus musculus with 24 samples.

Results

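The genes described here encode the enzymes that turn squalene epoxide into lanosterol and lanosterol into cholesterol, measured as mRNA in MIN6 β-cells with and without verapamil. MIN6 is a mouse insulinoma line that is used as a model of the pancreatic β-cell. The members were chosen by name, as the enzymes of the sterol steps after squalene epoxide: Lss, Cyp51, Tm7sf2, Msmo1, Nsdhl, Hsd17b7, Ebp, Sc5d and Dhcr7. Of these 9 genes, 7 had a row among the 12310 genes of the count table, and all 7 passed the filter on low counts. Hsd17b7, the reductase that restores the sterol hydroxyl group after loss of a methyl group, and Ebp, the isomerase that moves the ring double bond, were not analysed here.

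Verapamil-treated cells (50 µM; 24 h) were compared to untreated (control) cells, with 12 libraries per group. Both groups were wild-type MIN6 cells in 5.6 mM glucose. The paper's general methods give DMEM with heat-inactivated fetal bovine serum, glutamine, pyruvate, HEPES, antibiotics and β-mercaptoethanol for experimental assays. Serum, a source of sterols, was in that medium, but the RNA-seq methods name no medium and an assay of cell proliferation was serum-free. The libraries fell into 4 experiment sets of 3 libraries per group, called sets 1 to 4, as read from the first digit of a label, a reading that no source spells out. Columns V11, V12, C11 and C12 fit more than a single sample by name and entered as members of their group and, by elimination, of set 4. The values come from a single cell line, and nothing shows that the 3 libraries of a set came from separate cultures, so p-values over 24 libraries measure the spread between these libraries.

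Total counts were 21840159 to 44806556 in verapamil libraries and 12590476 to 32360171 in control libraries. All 10 β-cell markers listed had rows, of which 2 were called higher, 4 lower and 4 not. Over all 12306 genes tested 31.2% were called higher and 31.6% lower. With the GC content and length offset 2 markers were higher and 8 lower, against 2583 and 4277 of all genes. With the slopes of the libraries on both as covariates 2 were higher and 5 lower, against 2629 and 1736. Ins2, an insulin gene, fell to 635 ± 116 CPM in verapamil libraries, against 1318 ± 160 CPM in control libraries (SD, n = 12 each). Slc2a2, Iapp and Neurod1 fell by 0.84, 0.85 and 0.52 on the log2 scale. With the covariates Neurod1 stood at −0.04 (edgeR adjusted p = 0.59), and with the offset Slc2a2 stood at −0.23. The 2 markers called higher were Mafa and Nkx2-2. Mafa, a β-cell transcription factor, stood at 1260 ± 119 CPM in verapamil libraries and 697 ± 42.5 CPM in control libraries (SD, n = 12 each). Nkx2-2 rose by 0.62. Of 23 markers of other cell types, 4 had rows: Gcg at 176 to 333 CPM in verapamil libraries and 174 to 198 CPM in control libraries, Kdr at 7.18 to 18.1 against 0.562 to 3.77 CPM, Sox9 at 0.58 to 2.27 against 1.45 to 4.02 CPM, and Pdgfra at 0.0923 to 1.2 against 0.67 to 1.45 CPM. None of the acinar or leukocyte markers was among the rows, and the part of other cells in the results was not tested. The verapamil libraries also carried a trend with base composition. Across genes, the deviation of a library from the control mean correlated with GC content at r = 0.0354 to 0.641 in verapamil libraries and at −0.199 to 0.173 in control libraries, and with transcript length at −0.595 to −0.056 in verapamil libraries and at −0.147 to 0.13 in control libraries. The GC trend was steepest in the 6 verapamil libraries of sets 2 and 3 (r = 0.493 to 0.641), and the length trend was steepest in V11. Values with a correction for these trends, by an offset or by covariates, stand beside most results below whose call, direction or order they changed. They also stand beside those whose size they moved most, and the closing section gives further ones.

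Cholesterol is built from acetyl-CoA through mevalonate and squalene, and the steps described here are its last stage, in which the closed ring system loses its extra methyl groups and its double bonds are moved and reduced. The enzymes sit in the endoplasmic reticulum membrane, and their genes are textbook targets of the SREBP transcription factors, which are released from that membrane when its sterol content falls and bind sterol regulatory elements, usually beside sites of NF-Y and SP1. In β-cells, membrane cholesterol is known to affect insulin granules and ion channels. Transcripts are given as TMM-normalised read counts scaled to library size (CPM). Such a value is a share of the RNA of a library, which cannot separate more RNA per cell from more cells that make it.

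The RefSeq promoter windows of 4 members are shown because the members moved together, the first 3 being those with the largest changes and Sc5d the one with the smallest before correction. Each runs from 250 bases before to 50 bases after the transcription start on GRCm38.p6, in the direction of transcription, and capitals mark CCAAT or its complement ATTGG, the core of an NF-Y site, and the loose sterol regulatory element TCACNNCAC.
Tm7sf2, chr19:6067801-6068100, reverse strand: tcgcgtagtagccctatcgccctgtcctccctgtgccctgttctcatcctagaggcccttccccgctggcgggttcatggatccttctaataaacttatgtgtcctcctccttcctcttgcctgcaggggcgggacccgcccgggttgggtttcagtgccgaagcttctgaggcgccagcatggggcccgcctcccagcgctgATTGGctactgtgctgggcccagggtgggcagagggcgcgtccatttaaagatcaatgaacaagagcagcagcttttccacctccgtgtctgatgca
Msmo1, chr8:64733529-64733828, reverse strand: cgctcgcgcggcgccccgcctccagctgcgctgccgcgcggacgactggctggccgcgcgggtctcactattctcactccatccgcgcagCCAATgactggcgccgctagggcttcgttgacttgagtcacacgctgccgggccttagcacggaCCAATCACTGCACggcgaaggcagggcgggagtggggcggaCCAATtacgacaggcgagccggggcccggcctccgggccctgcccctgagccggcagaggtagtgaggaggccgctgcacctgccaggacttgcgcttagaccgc
Cyp51, chr5:4104648-4104947, reverse strand: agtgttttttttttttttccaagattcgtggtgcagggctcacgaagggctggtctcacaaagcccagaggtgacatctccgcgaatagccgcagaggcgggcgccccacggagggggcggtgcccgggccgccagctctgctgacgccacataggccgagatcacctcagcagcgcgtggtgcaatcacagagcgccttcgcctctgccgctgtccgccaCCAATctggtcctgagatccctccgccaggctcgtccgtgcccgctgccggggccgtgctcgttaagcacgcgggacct
Sc5d, chr9:42264251-42264550, reverse strand: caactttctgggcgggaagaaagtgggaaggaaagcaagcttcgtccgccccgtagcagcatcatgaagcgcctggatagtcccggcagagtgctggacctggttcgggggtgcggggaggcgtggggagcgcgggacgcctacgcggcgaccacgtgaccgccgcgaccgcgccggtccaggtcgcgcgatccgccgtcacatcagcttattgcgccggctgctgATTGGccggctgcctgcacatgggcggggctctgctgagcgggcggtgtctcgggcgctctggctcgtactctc

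All 9 genes had windows in the RefSeq table, 9 windows for the 7 analysed genes because Dhcr7 has 3. CCAAT, on either strand, was present in a window of 7 of the 7 analysed genes, against 41.1% of the 27025 genes of the table. Counted by window, it was in 7 of their 9 windows, against 37.4% of the 32851 windows. In Tm7sf2 it began 47 bases before the start (ATTGG), in Cyp51 29 bases before it, in Sc5d 24 bases before it, and in Msmo1 at 3 places, 160, 96 and 55 bases before it. GGGCGG, the core of an SP1 site, was likewise in a window of 7 of 7 genes, against 38.2% of all genes. The sterol regulatory element TCACNCCAC was in none of the 7, against 1.44% of all genes, and its looser form TCACNNCAC, which includes every match of the stricter one, was in Msmo1 and Dhcr7, against 4.37% of all genes. The match in Msmo1 (TCACTGCAC, 92 bases before the start) shares a base with a CCAAT. The shares are over all genes of the RefSeq table, with or without a row here, and not over the genes tested. These matches describe the letters in the windows, and binding was not measured.

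Transcripts of all 7 enzymes rose with verapamil, by 1.48-fold to 4.75-fold, and none fell. With no correction Tm7sf2, Msmo1 and Cyp51 changed most, Dhcr7 and Lss followed, and Nsdhl and Sc5d changed least. With the GC content and length offset Msmo1 (2.08) and Tm7sf2 (2.04) came before Cyp51 (1.76), Lss (1.18), Dhcr7 (1.03), Sc5d (1.01) and Nsdhl (0.64). The calls come from edgeR's quasi-likelihood test on all 24 libraries with Benjamini-Hochberg adjustment over 12306 genes, where 31.2% of all genes were called higher and 31.6% lower at an adjusted p under 0.05. That was 3836 genes higher and 3890 lower, against 2583 and 4277 with the GC content and length offset and 2629 and 1736 with the slopes as covariates. By size of the log2 fold change, Tm7sf2 ranked 12, Msmo1 23, Cyp51 30, Dhcr7 63, Lss 128, Nsdhl 660 and Sc5d 729 of the 12306 genes. By p-value, Msmo1 ranked 1 of all genes. In 4 of the 7, Tm7sf2, Msmo1, Cyp51 and Dhcr7, every verapamil library lay above every control library, which held for 4.95% of all genes.

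**Figure D1:**
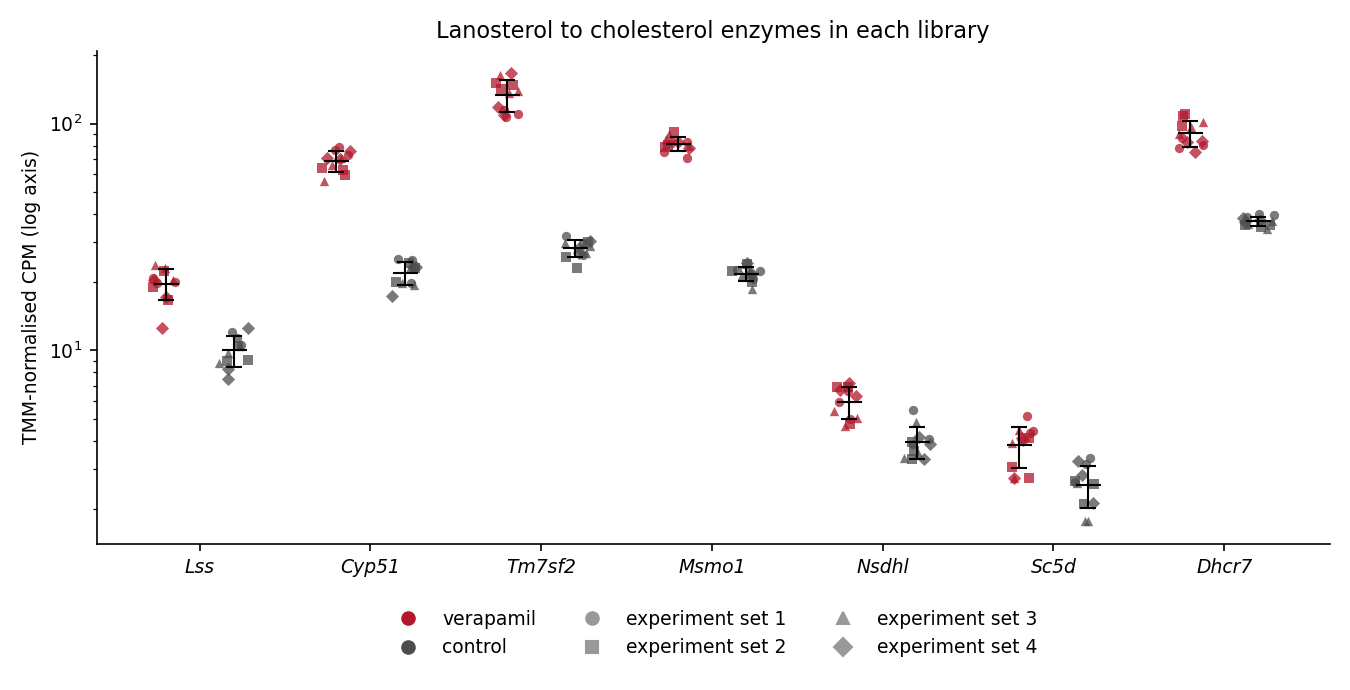
TMM-normalised CPM (log axis) of the 7 enzymes in each of the 24 libraries, with verapamil left of control, symbols for the 4 experiment sets, and the mean with its SD in black (n = 12 per group). The groups are apart for Cyp51, Tm7sf2, Msmo1 and Dhcr7, meet in 1 verapamil library for Lss (12.5 CPM, against 12.6 CPM in the highest control library), and overlap for Nsdhl and Sc5d.

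Lanosterol synthase, encoded by Lss (ENSMUSG00000033105, chr10:76531588-76557138, forward strand), closes the rings of squalene epoxide to give lanosterol. Its lowest, median and highest values were 12.5, 20.2 and 23.9 CPM in verapamil libraries and 7.45, 10.1 and 12.6 CPM in control libraries. The lowest verapamil library, V11, was the only one to reach the control range, and the other 11 lay above all controls. Lss rose by 0.98 on the log2 scale (SE 0.0947, edgeR adjusted p = 8.1e-09), about the same with the libraries' GC and length slopes as covariates (0.99) and larger with a GC and length offset (1.18). An antisense gene, 4930483K19Rik, shares exon bases with Lss and had no row in the table.

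Cyp51 (ENSMUSG00000001467, chr5:4081145-4104746, reverse strand) encodes the cytochrome P450 that removes the first methyl group from lanosterol. It had a lowest, median and highest value of 55.8, 70.1 and 79.1 CPM in verapamil libraries and 17.4, 23.1 and 25.4 CPM in control libraries. No values overlapped, and the lowest verapamil library, V8, was more than double the highest control library. Cyp51 rose by 1.64 (SE 0.0689, edgeR adjusted p = 6.8e-16). Its exons overlap those of Akap9 on the other strand, a scaffold protein gene that fell to 3.19 to 30.3 CPM in verapamil libraries, against 22.3 to 31.1 CPM in control libraries (log2 fold change −1.10, adjusted p = 0.0035). As the strand setting of the counting is not given, reads of the shared bases cannot be assigned.

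The sterol reductase encoded by Tm7sf2 (ENSMUSG00000024799, chr19:6062821-6068373, reverse strand) reduces the double bond that Cyp51 leaves behind. Tm7sf2 stood at 107, 138 and 167 CPM (lowest, median, highest) in verapamil libraries and at 23.2, 28.5 and 31.9 CPM in control libraries. With no correction this was the largest change of the 7, with a log2 fold change of 2.25 (SE 0.0792, edgeR adjusted p = 1.8e-17). It was 1.93 with the covariates and 2.04 with the offset, where Msmo1 stood at 2.08. The spread of verapamil libraries was 16.1% of their mean, against 8.7% in control libraries, and V11 held the highest value. Without sets 2 and 3 the log2 fold change was 2.06, and without V11 as well it was 1.94. Tm7sf2 shares exon bases with Vps51, a vesicle tethering gene on the same strand. Vps51 stood at 189 ± 26 CPM in verapamil libraries and 166 ± 7.19 CPM in control libraries (log2 fold change 0.19, edgeR adjusted p = 0.0094). Reads of the shared bases were not separated, and their part in the change of Tm7sf2 was not tested.

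Msmo1 (ENSMUSG00000031604, chr8:64718139-64733792, reverse strand), the sterol methyl oxidase, starts the removal of the remaining methyl pair. Its values were 70.8, 81.6 and 92.0 CPM (lowest, median, highest) in verapamil libraries and 18.7, 22.1 and 24.2 CPM in control libraries. The libraries of a group lay close together, with an SD of 7.26% of the mean with verapamil and 7.18% in control. The log2 fold change was 1.90 (SE 0.0491, edgeR adjusted p = 4.8e-20).

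Nsdhl (ENSMUSG00000031349, chrX:72918557-72958514, forward strand) encodes the dehydrogenase that carries out the decarboxylation after Msmo1. It was a low transcript, at 4.63, 6.09 and 7.16 CPM in verapamil libraries (103 to 299 reads per library) and 3.32, 3.86 and 5.44 CPM in control libraries (44 to 138 reads). The groups overlapped, with 7 of the 12 verapamil libraries above all controls. Nsdhl rose by 0.59 (SE 0.0961, edgeR adjusted p = 1.6e-05).

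Sc5d (ENSMUSG00000032018, chr9:42251595-42264256, reverse strand), the sterol desaturase, adds a ring double bond just before the last reduction. It was the lowest of the 7, at 2.74, 4.06 and 5.13 CPM in verapamil libraries (57 to 232 reads) and 1.76, 2.62 and 3.34 CPM in control libraries (22 to 100 reads). Here 8 of 12 verapamil libraries lay above all controls. Sc5d rose by 0.57 (SE 0.126, edgeR adjusted p = 0.00048), and by 1.01 with the GC and length offset and 0.84 with the slopes as covariates. Its longest transcript has 42.9% GC, the lowest of the 7, against a median of 49.8% over the table.

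Dhcr7 (ENSMUSG00000058454, chr7:143823145-143848410, forward strand) encodes the dehydrocholesterol reductase that makes cholesterol itself in one branch of the route. The lowest, median and highest values were 75.2, 88.0 and 110 CPM in verapamil libraries and 34.4, 37.1 and 40.0 CPM in control libraries. The control libraries were the tightest of the 7 genes, with an SD of 4.85% of the mean, and the groups did not overlap. Dhcr7 rose by 1.29 (SE 0.0601, edgeR adjusted p = 5.1e-15), and by 1.03 with the offset. At 52.8% its GC content was the highest of the 7.

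**Figure D2:**
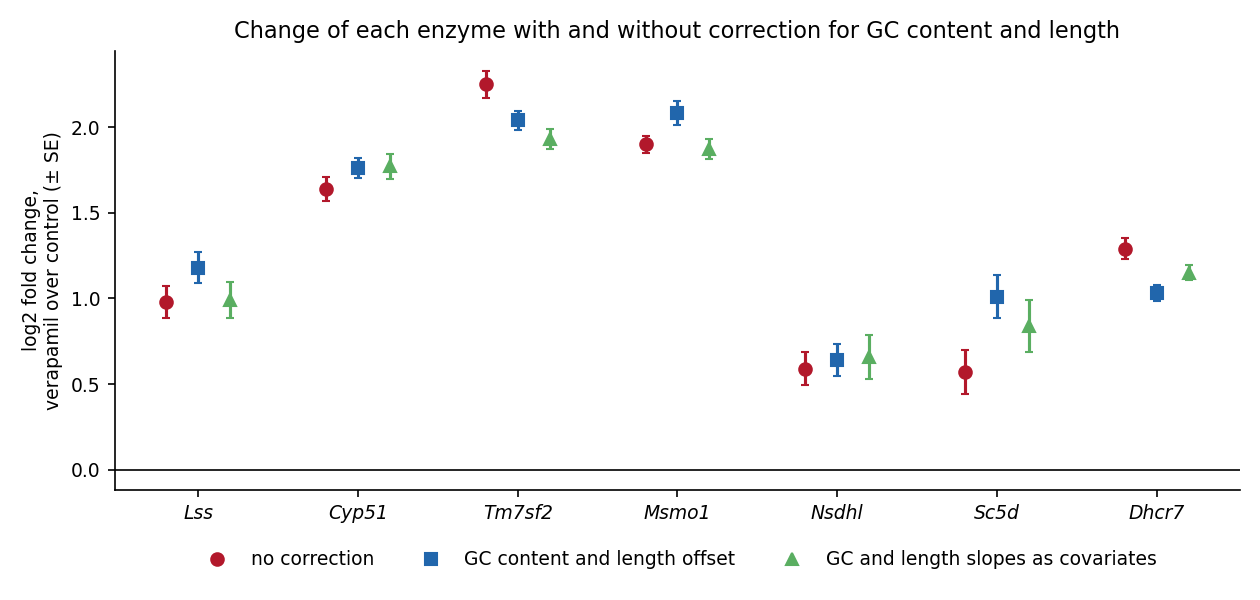
Log2 fold change (verapamil over control, with its SE) of each enzyme with no correction, with a GC content and length offset, and with the slopes of the libraries on GC content and length as covariates, all from edgeR on 24 libraries. All 21 values lie above 0, Tm7sf2 and Dhcr7 are lower with either correction (2.25 against 2.04 and 1.93, and 1.29 against 1.03 and 1.15), and Sc5d is higher (0.57 against 1.01 and 0.84).

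The 7 enzymes together took 404 ± 25.4 CPM in verapamil libraries (368 to 437) and 126 ± 5.57 CPM in control libraries (118 to 138), a ratio of means of 3.22. The summed level was therefore apart between the groups, although its makeup shifted. Tm7sf2 made up 32.9% of it with verapamil and 22.4% in control, while Dhcr7 made up 22.5% with verapamil and 29.5% in control. Msmo1 took 20.2% with verapamil against 17.4%, and Cyp51 took 17.1% against 17.5%. The shares of Lss, Nsdhl and Sc5d were 4.88%, 1.48% and 0.955% with verapamil, against 7.94%, 3.13% and 2.03% in control.

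**Figure D3:**
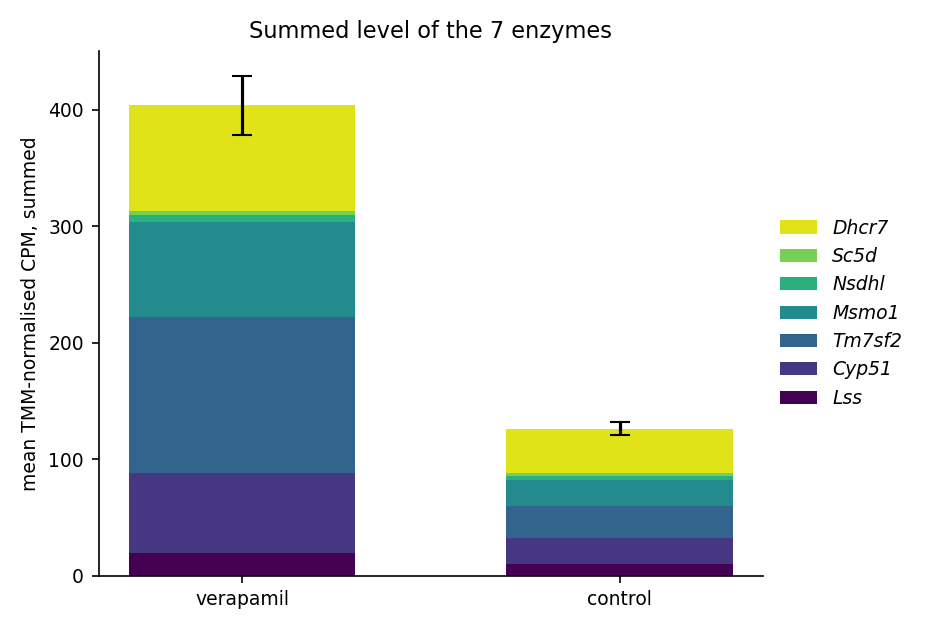
Mean TMM-normalised CPM of the 7 enzymes, stacked, in verapamil (left) and control (right) libraries, with the SD of the summed level over 12 libraries. The stack reaches 404 CPM with verapamil and 126 CPM in control, and Tm7sf2, Dhcr7, Msmo1 and Cyp51 fill most of both.

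To compare the levels of different genes, CPM were divided by the exonic length in kilobases. In verapamil libraries Tm7sf2 was highest, at 30.4 ± 4.89 CPM per kilobase (SD, n = 12), and Dhcr7, Cyp51 and Msmo1 followed at 15.6 ± 2.03, 15.5 ± 1.64 and 13.3 ± 0.964, within their spread of each other. Nsdhl (2.08 ± 0.33), Lss (1.82 ± 0.287) and Sc5d (0.784 ± 0.164) formed a low group in which Nsdhl and Lss were within their spread. In control libraries Tm7sf2 and Dhcr7 were alike at 6.4 ± 0.557 and 6.38 ± 0.309 CPM per kilobase, and Cyp51, Msmo1, Nsdhl, Lss and Sc5d followed at 4.98, 3.55, 1.38, 0.926 and 0.527, each further from its neighbours than their SDs. With the length of the longest transcript in place of exonic length, Dhcr7 came first in control (13.2, against 9.14 for Tm7sf2) and Tm7sf2 came first with verapamil (43.4, against 32.3 for Dhcr7), and Msmo1 came before Cyp51 in both groups (27.5 ± 1.99 against 17.4 ± 1.84 with verapamil, 7.35 against 5.6 in control). The order of Tm7sf2, Dhcr7, Msmo1 and Cyp51 thus depends on the length used.

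Whether the enzymes changed by different amounts was tested on the log2 ratio of 2 members within a library, which needs no library size. Of the 21 pairs that 7 genes give, 20 differed between the groups (two-sided permutation test, 100000 resamples, Benjamini-Hochberg over the 21 pairs, smallest raw p possible 2e-05). The ratio of Tm7sf2 to Dhcr7, the first and the last reductase of the route, differed by 0.95 (SE 0.0698, permutation p = 2e-05, adjusted p = 3.5e-05), and all 12 verapamil libraries lay above all controls. Likewise Msmo1 over Dhcr7 differed by 0.62 (SE 0.0622, permutation p = 2e-05; 1.05 with the offset) and Msmo1 over Nsdhl by 1.31 (SE 0.115, permutation p = 2e-05). Tm7sf2 over Msmo1 differed by 0.33 (SE 0.078, permutation p = 1.0e-04) with no correction and by −0.04 with the offset (adjusted p = 0.66). Nsdhl and Sc5d did not pass, with a difference of 0.02 and a 95% interval of −0.26 to 0.30 (permutation p = 0.89). With the offset that pair differed by −0.39 (adjusted p = 0.017). Of the 20 pairs, 13 were also called under all 6 alternatives tried, and the other 7 were lost under at least 1 of them.

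The changes were next read within each experiment set, with 3 libraries per group. All 28 log2 fold changes were positive. In set 1, 6 of the 7 enzymes were called higher, against 13.7% of all genes, in set 2 again 6, against 26.3%, and in set 3 also 6, against 19.9%. In set 4, 4 were called, against 0.317% of all genes (39 higher and 11 lower, with 945 and 827 at an unadjusted p under 0.05). Tm7sf2, Msmo1, Cyp51 and Dhcr7 passed in all 4 sets. The enzymes that did not pass were Nsdhl in set 1 (0.38, adjusted p = 0.14), set 3 (0.36, adjusted p = 0.18) and set 4 (0.83, adjusted p = 0.14), Sc5d in set 2 (0.42, adjusted p = 0.14) and set 4 (0.41, adjusted p = 0.46), and Lss in set 4 (0.82, adjusted p = 0.28), all by edgeR.

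**Figure D4:**
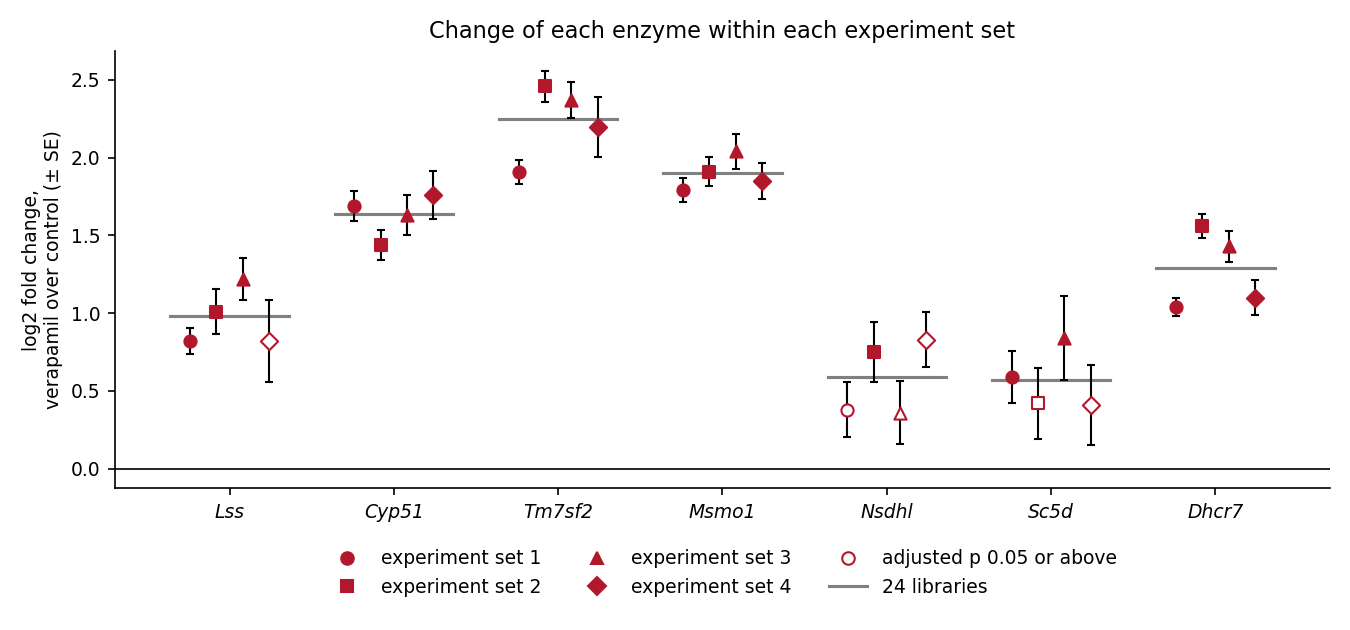
Log2 fold change (verapamil over control, with its SE) of each enzyme within experiment sets 1 to 4, from edgeR on 3 libraries per group. Filled symbols have an adjusted p under 0.05, and grey lines give the value from all 24 libraries. All points lie above 0, and Dhcr7 runs at 1.04, 1.56, 1.43 and 1.10 in sets 1, 2, 3 and 4.

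When the counts of a set were summed per group, all 7 were called higher over 4 sums against 4 (edgeR), against 24.4% of all genes. Every verapamil sum of each of the 7 lay above every control sum, which held for 24.3% of all genes, and the exact two-sided permutation test gave p = 0.0286 for each, the smallest this design allows. Tm7sf2 sums were 111, 145, 145 and 133 CPM with verapamil in sets 1, 2, 3 and 4, and 29.4, 26.6, 28.4 and 28.7 CPM in control. Msmo1 sums were 76.8, 82.9, 84.7 and 81.9 CPM with verapamil and 21.8, 22.1, 20.5 and 22.6 CPM in control. In both genes the sets differed far less within a group than between the groups. Without sets 2 and 3, whose verapamil libraries had the steepest GC trend, all 7 were still called higher, against 13.4% of all genes, with log2 fold changes of 0.52 (Sc5d) to 2.06 (Tm7sf2).

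An interaction of experiment set and treatment was called for 1 of the 7 enzymes, Dhcr7 (edgeR adjusted p = 0.00697), against 9.72% of all genes. Dhcr7 averaged 81.8 ± 4.26, 106 ± 6.63, 96.1 ± 6.29 and 80.7 ± 4.75 CPM in verapamil libraries of sets 1, 2, 3 and 4, and 39.4 ± 0.658, 35.5 ± 0.529, 35.9 ± 1.43 and 37.6 ± 0.792 CPM in control libraries (SD, n = 3 each). Sets 2 and 3, with the larger changes, also had the steeper GC trend, whose part in this difference was not tested within sets. With the GC and length offset the interaction of Dhcr7 had an adjusted p of 0.651. The other 6 did not pass (adjusted p = 0.152 to 0.703), and Msmo1 alone passed with the offset (adjusted p = 0.0128).

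Taken library by library, the mean log2 difference of the 7 enzymes from the control mean was 1.20 to 1.40 in verapamil libraries and −0.13 to 0.17 in control libraries. V11 was lowest (1.20) and V5 highest (1.40). Single enzymes spread more than their mean. In V11, for example, Lss and Dhcr7 had their lowest values of the verapamil group and Tm7sf2 its highest, and in V8 Cyp51, Nsdhl and Sc5d were lowest and Lss highest. V8 had the steepest GC trend of all libraries (r = 0.641) and V11 the steepest length trend (r = −0.595).

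The 8 other genes with profiles closest to this mean, by root mean square log2 difference over 24 libraries among 9032 genes with at least 5 CPM, were Kcnip1 (0.14), Acss2 (0.162), Slc38a3 (0.18), Barhl1 (0.18), Wnt4 (0.189), Zfp395 (0.197), Crem (0.198) and Creb3l1 (0.2), against a median of 0.931. Acss2, which makes acetyl-CoA from acetate, stood at 145 ± 13.3 CPM in verapamil libraries and 52.8 ± 2.98 CPM in control libraries. Kcnip1, a potassium channel interacting protein, stood at 140 ± 10.9 CPM in verapamil libraries and 57.4 ± 3.53 CPM in control libraries. Of the members, Dhcr7 was nearest to the mean profile (0.124) and Tm7sf2 farthest from it (0.682). The libraries fall into 2 groups, so a gene with a change of like size is near by this measure.

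Upstream of the route, all 9 measured genes from acetyl-CoA to squalene epoxide rose, against 31.2% of all genes tested. Their median log2 fold change was 1.06, against −0.0033 over all genes tested. For Idi1, an isomerase, the call was lost on sums per experiment set (1.06, adjusted p = 0.073), with 7 of its 12 verapamil libraries above all controls and 2 below them. Fdps, farnesyl diphosphate synthase, had 209 ± 46.3 CPM in verapamil libraries and 50.3 ± 6.12 CPM in control libraries (2.06, edgeR adjusted p = 1.9e-14). Acat2 rose by 1.60, and Hmgcs1 by 1.57 (1.84 with the offset, 2.05 with the covariates). Sqle, which makes the squalene epoxide that Lss uses, rose by 0.59 (SE 0.0791), and by 0.62 with the offset and 0.85 with the covariates.

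Among the other proteins of the lanosterol to cholesterol stage, 4 of 5 measured rose and 1 fell, against 31.2% and 31.6% of all genes. Tmem97, a membrane protein that binds sterol-like ligands, had 18.2 ± 2.44 CPM in verapamil libraries and 9.83 ± 1.64 CPM in control libraries (0.89, edgeR adjusted p = 1.2e-08; 0.53 with the offset and 0.68 with the covariates). Lbr, a nuclear membrane protein with the same reductase activity as Tm7sf2, fell to 0.678 ± 0.257 CPM in verapamil libraries, against 0.998 ± 0.276 CPM in control libraries (−0.56, adjusted p = 0.012). This call of Lbr was lost with the GC and length offset (−0.35, adjusted p = 0.11) and with the slopes as covariates (−0.28, adjusted p = 0.44).

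The electron donors of these oxidases changed little: 3 of 5 rose, none fell and the median was 0.18. Of all genes 31.2% were called higher and 31.6% lower. With the offset 1 rose and 2 fell, Por and Cyb5r1 (−0.25, edgeR adjusted p = 0.00047), against 2583 and 4277 of all 12306 genes. With the covariates 1 rose and 1 fell, against 2629 and 1736 of all genes. Por, the reductase that feeds Cyp51, had 383 ± 36.6 CPM in verapamil libraries and 381 ± 16.3 CPM in control libraries (0.01, edgeR adjusted p = 0.87), and a lower value with the offset (−0.30, adjusted p = 5.8e-05) and with the covariates (−0.11, adjusted p = 0.018). Cyb5b, a cytochrome b5, rose by 0.26, and by 0.45 with the offset. Cyb5r3 rose by 0.28 and Cyb5a by 0.18, and neither call held with the offset or the covariates.

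Of the genes of SREBP control and sterol uptake, 6 of 10 measured rose and 2 fell (median 0.25). Over all genes 31.2% were called higher and 31.6% lower. With the offset 5 rose and 1 fell, Scap (−0.09, from 0.10), against 2583 and 4277 of all 12306 genes. With the covariates 6 rose and 1 fell, Mbtps1 (−0.17, from −0.19), against 2629 and 1736 of all genes. Insig1, which holds SREBP in the endoplasmic reticulum and is itself induced by it, rose by 1.87 (99.0 ± 13.7 CPM with verapamil and 27.0 ± 1.64 CPM in control, edgeR adjusted p = 2.2e-17). Srebf2, which encodes an SREBP, rose by 0.79 and Stard4, a sterol carrier, by 0.73 (1.12 with the offset and 1.11 with the covariates). Srebf1 rose by 0.28, a call lost with the offset (0.09) and the covariates (0.14). Mbtps2, a protease that releases SREBP, fell by 0.58 with no correction, and stood at −0.06 (adjusted p = 0.59) with the offset and 0.24 (adjusted p = 0.00028) with the covariates.

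A list of the oxysterol receptor LXR, its targets and genes of sterol efflux or esterification had 5 of 6 measured lower (median −0.51). The 1 higher was Nr1h2, which encodes an LXR. Over all genes 31.6% were called lower and 31.2% higher. With the offset or the covariates 4 were lower and 0 higher. Over all 12306 genes the offset gave 4277 lower and 2583 higher, and the covariates 1736 and 2629. With the offset Soat1 (−0.38 before) stood at 0.19 and Nr1h2 (0.32 before) at −0.03, and neither was called. Abca1, a cholesterol exporter, had 42.6 ± 13.8 CPM in verapamil libraries and 102 ± 10.3 CPM in control libraries (−1.26, edgeR adjusted p = 2.0e-07). Abcg1, a second exporter, had 35.2 ± 6.66 CPM in verapamil libraries and 66.6 ± 8.7 CPM in control libraries (−0.92, adjusted p = 2.8e-08). Both stayed lower with the offset (−0.94 each) and with the covariates (−0.69 and −0.86).

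**Figure D5:**
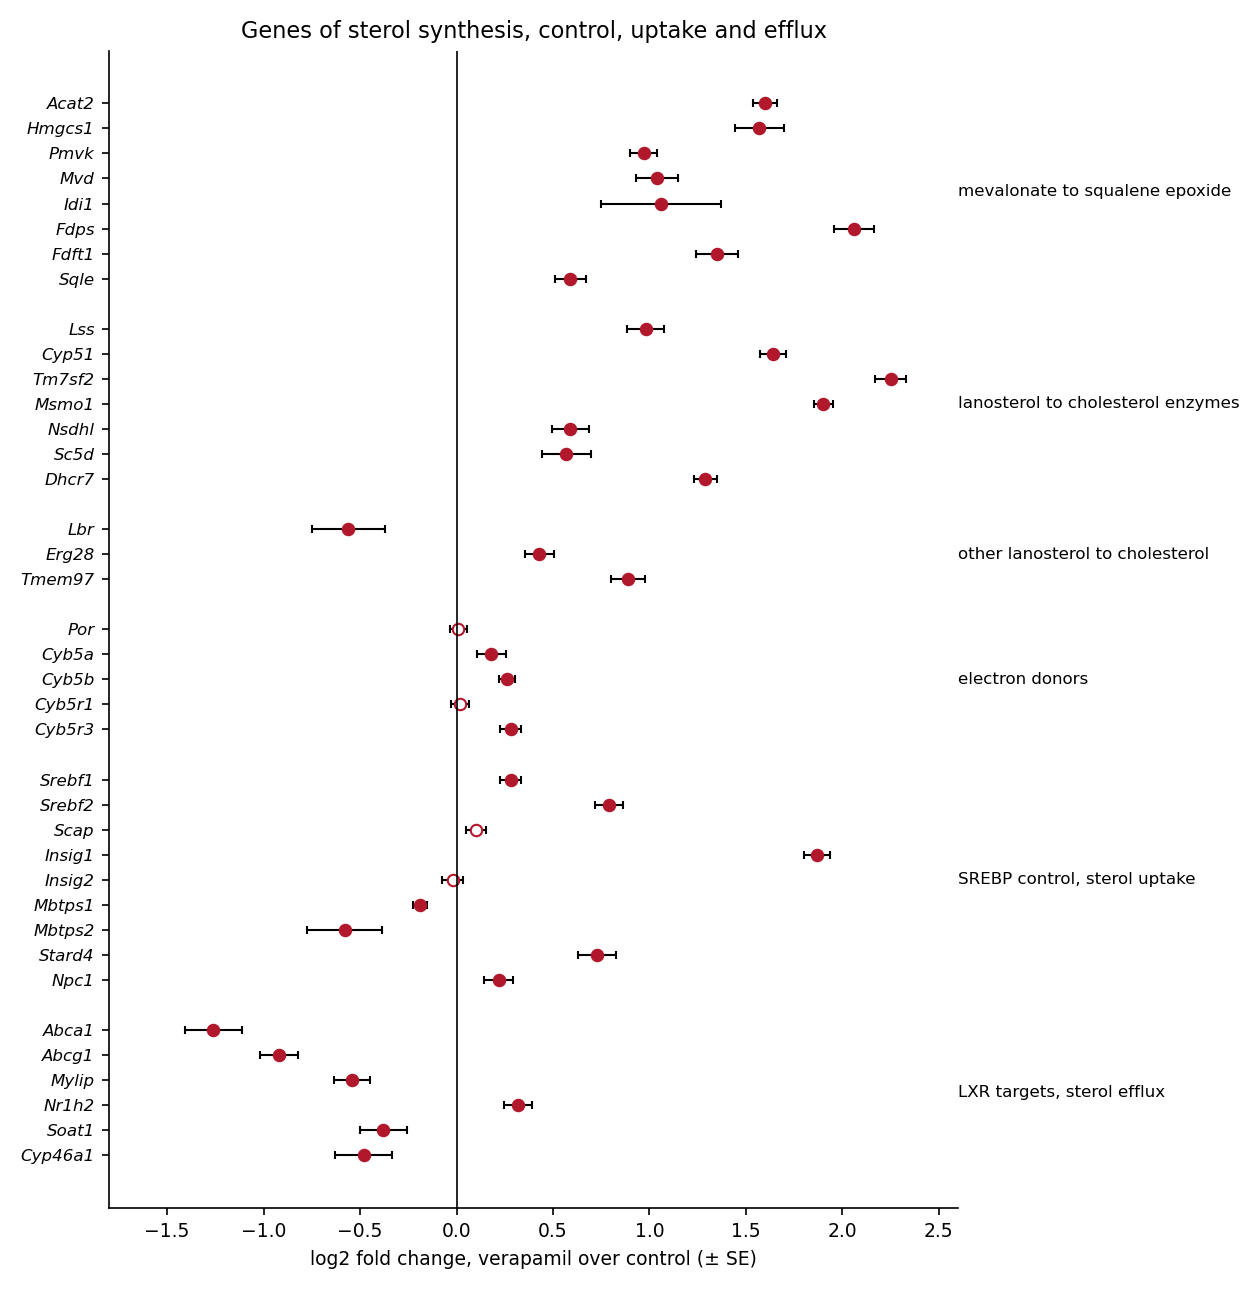
Log2 fold change (verapamil over control, with its SE) of measured genes from the lists of sterol synthesis, its control, uptake and efflux, from edgeR on 24 libraries, with filled points where the adjusted p is under 0.05. Points of the upstream genes drawn and of the 7 enzymes all lie right of 0, those of Abca1 (−1.26) and Abcg1 (−0.92) left of it, and Por lies at 0.01.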

How the data were processed

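RNA-seq libraries of 12 verapamil-treated and 12 untreated MIN6 cell samples were analysed from the raw counts per gene that the authors deposited. The authors demultiplexed with bcl2fastq 2.20, trimmed with Trimmomatic 0.39, aligned to the mouse genome (GRCm38, mm10) with HISAT2 2.1.0 and counted with HTSeq 0.9.1, per the methods and the submitters' processing notes. For the counting, neither a strand setting nor an annotation is given in the sources used here. The sources differ on the library kit. The deposited table also holds the authors' own comparison from edgeR (a log2 CPM, fold changes, p-values and adjusted p-values), which was not used.

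The verapamil and control libraries were compared by the quasi-likelihood F test of edgeR 4.0.16 (R 4.3.3) after TMM scaling, with p-values adjusted by Benjamini-Hochberg and a threshold of 0.05. Genes with low counts were removed by filterByExpr, with a minimum count of 10 and a minimum total of 15. For each gene, SE was taken as |log2 fold change|/√F. Further fits used counts summed per experiment set, each set alone, an interaction of set and treatment, DESeq2 1.42.0, other size factors, no filter, blocks, libraries or sets left out, and corrections for GC content and length. The offset removed each library's spline trend (5 degrees of freedom each) in GC content and in log2 length of the longest GENCODE M21 transcript. The covariates were each library's slopes on both. Ratios of members used counts plus 0.5 and permutation tests in scipy 1.17.1. The design foresaw all pairs of 9 members, and 21 pairs remained. The fits were tested on simulated data.

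Named are all analysed members, genes of 5 lists written down by name (some of these genes count in their lists and are not reported here by name), up to 2 further genes per list with the largest change past the threshold, and the 8 genes nearest to the members' mean profile. Members and lists were chosen with earlier results of these data known. Within groups, any 2 libraries differed by at least 5.73 times the counting noise (chi-square per degree of freedom), so none was treated as a repeat. Replicate numbers did not pair the samples. Counts of 44 to 299 reads for Nsdhl and 22 to 232 for Sc5d limit the precision of these genes most. Near-identical copies of the members (300 bases at 90% identity) were not found among the GENCODE M21 transcripts, and promoter windows come from the RefSeq table.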

Additional observations from a re-analysis of the deposited data

Results flagged for a closer look

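The change of Dhcr7 with verapamil differed between the experiment sets, by the edgeR interaction of set and treatment (adjusted p = 0.007), a call that 9.72% of all genes had and that 1 of the 7 enzymes had. Its log2 fold change was 1.04, 1.56, 1.43 and 1.10 in sets 1, 2, 3 and 4, and every verapamil library was above every control library in each set. With the GC content and length offset the interaction had an adjusted p of 0.65, and again 1 of the 7 was called, Msmo1 (adjusted p = 0.0128). For the set sums of each member and group, Dixon's test compared the gap of the outermost sum with the range of the 4 sums. None was called, but with 4 sums this test can hardly call any set, so it cannot show that no set stood apart. The largest ratio was 0.767 for Lss in control, at 11.4 CPM in set 1 against 9.53 to 9.93 CPM in sets 2 to 4. Tm7sf2 with verapamil stood at 111 CPM in set 1, against 133 to 145 CPM in sets 2 to 4.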

How the results depend on the processing

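All 7 enzymes kept their direction and their call under each of 41 alternatives that used more than a single set (287 values). Leaving out 1 library at a time gave 7 of 7 higher in each case, with log2 fold changes of 2.21 to 2.27 for Tm7sf2, 1.88 to 1.92 for Msmo1, 1.61 to 1.66 for Cyp51, 1.26 to 1.31 for Dhcr7, 0.94 to 1.02 for Lss, 0.56 to 0.64 for Nsdhl and 0.52 to 0.61 for Sc5d. Within set 4 alone, 4 were called, a fit on 6 libraries. Same-numbered libraries did not deviate together (r = −0.0574 to 0.131 over 10 pairs, 2 over 0.1, 1 verapamil library closest to its own number). With a replicate block over the 20 numbered libraries all 7 were called higher, as without the block in those libraries, and 3651 genes were called higher and 3917 lower, against 3872 and 3860 without it. With the replicate block and the offset together 7 were called, with Sc5d at 1.12.

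With the GC content and length offset, 2583 genes were called higher and 4277 lower, and with the slopes as covariates 2629 and 1736, against 3836 and 3890 with no correction. The variance inflation of the treatment term with the covariates was 2. Sums per set gave 3005 and 2124 (2658 and 2520 with DESeq2 size factors), leaving out set 2 gave 2852 and 2518, leaving out sets 2 and 3 gave 1653 and 1482 (2241 and 2318 without V11 as well), and sets 1 and 3 alone gave 1680 and 1721, and 2445 and 2878. Of the lists, the offset gave 0 lower and the covariates 0 lower among the other lanosterol to cholesterol proteins (1 with no correction). Among the electron donors each gave 1 higher (3), with 2 and 1 lower (0). Each gave 1 lower among genes of SREBP control and uptake (2), Scap with the offset and Mbtps1 with the covariates. In the LXR and efflux list each gave 0 higher (1) and 4 lower (5). Among the genes named, signs turned for Por (−0.30 and −0.11), Cyb5a (−0.12 with the offset), Cyb5r3 (−0.04 with the offset) and Mbtps2 (0.24 with the covariates). Others of the lists turned too, among them Cyb5r1 (−0.25 and −0.07, from 0.02), Scap (−0.09 and −0.07, from 0.10), Nr1h2 (−0.03 with the offset, from 0.32) and Soat1 (0.19 with the offset, from −0.38). Among pairs, the offset turned Lss against Dhcr7 to 0.16, Tm7sf2 against Msmo1 to −0.04, Nsdhl against Sc5d to −0.39 and Sc5d against Dhcr7 to 0.01, and leaving out set 2 or 4 turned Nsdhl against Sc5d to −0.08 and −0.12. The number of pairs called was 17 to 20. The cause of these changes was not tested. Leaving out sets 2 and 3, V11 and the block from the numbered libraries were alternatives chosen after seeing the data.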
